A study of Mus musculus with 47 samples.

Results

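The major urinary protein (Mup) genes described here are Mup3, Mup15, Mup17, Mup18, Mup20 and Mup21. They were taken from the liver count table by gene symbol and make up 6 of its 20320 genes. All 6 passed the filter on low counts and stood among the 16650 genes tested. The sum over the 19 Mup genes with a numbered symbol is given beside them, because near-identical copies share reads.

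Liver polyadenylated RNA was sequenced from male and female mice of 3 inbred strains: NZO/HlLtJ, an obesity-prone strain, CAST/EiJ, a wild-derived strain, and C57BL/6J, the common laboratory strain whose genome is the mouse reference. Mice of each strain and sex ate a diet rich in fat and sugar, labelled 44% fat, or a control diet labelled 10% fat, both with added fiber. The diets began in week 6 of life and tissue was taken in week 15. The labels give the genotype of every library as wild type, and the series asks how genotype and diet act together in mouse models of type 2 diabetes. The 12 groups of strain, sex and diet held 4 libraries each, except CAST/EiJ males on 10% fat, which held 3. In all, 23 libraries came from males and 24 from females, 24 from mice on 44% fat and 23 from mice on 10% fat. Replicate numbers were given here in accession order and only name libraries. Whether every library stems from its own mouse is not stated in the labels, and p-values thus reflect the variation among these libraries, which may be technical.

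Major urinary proteins are small secreted lipocalins, barrel-shaped carriers that are made mainly in the mouse liver, filtered into urine, and bind volatile pheromones that they release slowly from scent marks. Their liver transcription is known to depend on the pulsed, male pattern of growth hormone, on androgens, glucocorticoids and thyroid hormone, and it falls in some states of obesity and diabetes. Mup20 encodes darcin, a male pheromone that itself attracts females and fixes their memory of a scent mark. Mup15, Mup17 and Mup18 belong to the central copies of the cluster, which are almost alike in sequence, whereas Mup3, Mup20 and Mup21 are the more divergent, peripheral kind.

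All 19 numbered Mup genes lie on chromosome 4 of GRCm38, between 59964294 and 62150863, a span of 2.19 Mb, with 18 on the minus strand and 1, Mup6, on the plus strand. Mup15 (ENSMUSG00000096674) spans 61435790 to 61439743, Mup17 (ENSMUSG00000096688) spans 61591929 to 61595871, and Mup18 (ENSMUSG00000078674) spans 61670177 to 61674136. Mup20 (ENSMUSG00000078672) spans 62050234 to 62054158, Mup3 (ENSMUSG00000066154) spans 62083476 to 62087342, and Mup21 (ENSMUSG00000066153) spans 62147932 to 62150863. All 6 are transcribed from the minus strand.

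The 250 bases before the annotated start of 5 members are shown because they display how alike the copies are in the DNA that lies next to their promoters. They are RefSeq sequences of GRCm38.p6 on the minus strand, read 5′ to 3′, from the C57BL/6J reference and not from the other strains. Capitals mark the letters TATATA. The windows are chr4:62087318-62087567 for Mup3, chr4:62150842-62151091 for Mup21, chr4:61439705-61439954 for Mup15, chr4:61595833-61596082 for Mup17 and chr4:61674095-61674344 for Mup18.
Mup3: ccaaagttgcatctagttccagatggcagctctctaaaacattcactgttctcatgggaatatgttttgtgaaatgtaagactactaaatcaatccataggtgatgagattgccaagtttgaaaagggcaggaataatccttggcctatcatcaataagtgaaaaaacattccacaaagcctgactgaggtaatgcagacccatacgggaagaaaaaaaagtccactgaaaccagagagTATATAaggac
Mup21: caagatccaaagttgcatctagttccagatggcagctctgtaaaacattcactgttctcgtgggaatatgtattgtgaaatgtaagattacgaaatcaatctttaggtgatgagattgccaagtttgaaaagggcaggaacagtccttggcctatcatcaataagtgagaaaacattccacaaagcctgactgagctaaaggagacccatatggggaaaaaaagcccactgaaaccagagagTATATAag
Mup15: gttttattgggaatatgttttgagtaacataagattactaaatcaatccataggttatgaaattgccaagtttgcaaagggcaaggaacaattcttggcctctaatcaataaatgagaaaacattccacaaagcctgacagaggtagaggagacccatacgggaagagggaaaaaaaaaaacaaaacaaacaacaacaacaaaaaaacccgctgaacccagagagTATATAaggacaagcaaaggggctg
Mup17: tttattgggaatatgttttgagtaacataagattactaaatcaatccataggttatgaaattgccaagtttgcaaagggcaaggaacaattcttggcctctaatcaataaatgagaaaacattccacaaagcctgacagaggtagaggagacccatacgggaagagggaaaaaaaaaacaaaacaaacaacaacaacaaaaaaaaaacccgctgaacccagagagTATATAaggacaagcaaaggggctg
Mup18: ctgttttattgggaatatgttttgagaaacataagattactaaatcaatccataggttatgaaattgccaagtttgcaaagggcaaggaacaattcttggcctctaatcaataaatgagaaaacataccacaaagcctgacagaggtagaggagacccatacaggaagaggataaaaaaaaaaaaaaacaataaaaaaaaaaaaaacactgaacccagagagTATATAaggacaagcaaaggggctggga
For identity and motif counts the window ran from 250 bases before to 50 bases after each start. The windows of Mup15 and Mup17 were identical at 297 of 297 aligned bases, gaps not counted, and differed only in gaps. Mup17 and Mup18 matched at 96.2% and Mup15 and Mup18 at 95.6% of aligned bases. Mup3 and Mup21 matched each other at 93.9%, while the matches between these 2 genes and Mup15, Mup17 and Mup18 were 85.1 to 87.6%. The letters TATATA, searched on both strands, occurred in 5 of 5 members and in 1863 of 32851 promoter windows of the same length, or 5.67%. They began 11 bases before the start in Mup3, 8 in Mup21, 25 in Mup15, 25 in Mup17 and 28 in Mup18. The letters TTCNNNGAA, the core of Stat5 motifs, which reads the same on both strands, occurred in 0 of 5 members and in 2726 of the 32851 windows, or 8.3%. Matches of the 2 motifs cannot overlap.

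The transcripts differed in how well reads of 100 bases can tell them apart. Of all 100-base windows in the longest coding transcript, 97.1% in Mup3, 95.5% in Mup21, 61.2% in Mup20 and 40.6% in Mup17 occurred in none of the other annotated Mup genes and pseudogenes, 49 being compared in all. The share was 12.9% in Mup18 and 2.66% in Mup15. Of the genes outside the 6 members that are named below, it was 18.4% in Mup7, 14.1% in Mup9, 12.8% in Mup1, 2.66% in Mup2 and 0% in Mup19. Mup15 and Mup18 transcripts were identical at 99% of aligned bases, Mup17 and Mup18 at 98.6%, Mup15 and Mup17 at 98.5%, and Mup3 and Mup21 at 96.1%. Mup20 matched Mup17 at 90.7% and Mup3 at 88.8%. How the authors assigned reads that match several copies is not given in the sources used here, and 91.7% of Mup values were not whole numbers. The levels of Mup15 and Mup18, and in part Mup17, are therefore uncertain as single genes, as are those of Mup1, Mup2, Mup7, Mup9 and Mup19. The family sum is the value that does not depend on the split among the 19 copies.

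Total counts were 21.6 to 47.8 M per library, with a median of 40 M (M, 1e6 counts). All 10 hepatocyte markers, such as Alb, had counts in every library, and 0 of 5 kidney markers were in the table. In 5 libraries the pancreatic acinar gene Cpa1 reached 20 CPM or more: CAST/EiJ female replicate 2 on 44% fat (47 CPM), C57BL/6J male replicates 2 and 3 on 10% fat (41.4 and 74.1 CPM) and C57BL/6J female replicates 1 and 2 on 44% fat (82.0 and 41.0 CPM). The C57BL/6J female with the most Cpa1 held 862 CPM of Mup20, against 37.0 to 83.8 CPM in the other 7 C57BL/6J females. It also had the lowest values among C57BL/6J females for the Mup sum (1778 CPM), Mup15 (1.11 CPM), Mup17 (1.52 CPM) and the summed female-biased genes (2472 CPM), and the highest summed stellate cell markers of all libraries (664 CPM, against at most 324 CPM). The part of these cell types in its Mup values was not tested.

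Male livers held more Mup RNA than female livers in all 3 strains. The summed level was 5.81-fold higher in NZO/HlLtJ males, 10.2-fold higher in CAST/EiJ males and 8.73-fold higher in C57BL/6J males than in females of the same strain (ratio of group means, diets weighted equally). Mup3, Mup17 and Mup21 were higher in males in every strain. Mup20 was higher in males of NZO/HlLtJ and C57BL/6J and almost absent in both sexes of CAST/EiJ, and Mup18 was higher in males of CAST/EiJ and C57BL/6J but at about 1 CPM in both sexes of NZO/HlLtJ.

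Levels are CPM, counts scaled to a common library size of 1e6 with TMM factors, and the family sum is described without a test. In NZO/HlLtJ the sum was 16610.3, 21572, 9164 and 16018 CPM on 44% fat and 19992, 20521, 20053 and 16621 CPM on 10% fat in males, against 5052, 3025, 2324 and 2104 CPM on 44% fat and 2555, 2729.7, 2629 and 3786 CPM on 10% fat in females. In CAST/EiJ it was 59713, 58931, 61805 and 58050.1 CPM on 44% fat and 60295, 58903 and 53728 CPM on 10% fat in males, against 6706, 4673, 7043 and 9193 CPM on 44% fat and 5886, 4132, 5273 and 3221 CPM on 10% fat in females. In C57BL/6J it was 24419, 24124, 38985 and 22795 CPM on 44% fat and 28914, 12224, 25238 and 35912 CPM on 10% fat in males, against 1778, 3771, 5134 and 3688 CPM on 44% fat and 3062, 1805, 2013 and 3097 CPM on 10% fat in females. In each strain the lowest male stood above the highest female, and CAST/EiJ males stood above every other library. Mean sums were 17569 ± 3994 CPM in NZO/HlLtJ males, 58775 ± 2530.4 CPM in CAST/EiJ males and 26576 ± 8275 CPM in C57BL/6J males (SD, n = 8, 7 and 8). In females they were 3026 ± 963 CPM in NZO/HlLtJ, 5766 ± 1884 CPM in CAST/EiJ and 3044 ± 1166 CPM in C57BL/6J (SD, n = 8 each). Before scaling, Mup genes took a mean of 1.71% of all counts in NZO/HlLtJ males and 0.306% in NZO/HlLtJ females, 5.72% in CAST/EiJ males and 0.560% in CAST/EiJ females, and 2.68% in C57BL/6J males and 0.319% in C57BL/6J females.

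Across the 6 combinations of strain and sex the order of the mean sum was CAST/EiJ males, C57BL/6J males, NZO/HlLtJ males, then CAST/EiJ, C57BL/6J and NZO/HlLtJ females. C57BL/6J and NZO/HlLtJ males overlapped, as did the females of all 3 strains, and the lowest NZO/HlLtJ male (9164 CPM) stood just below the highest CAST/EiJ female (9193 CPM), while CAST/EiJ males overlapped with no other combination. The log2 ratio of males over females was 2.54 in NZO/HlLtJ, 3.35 in CAST/EiJ and 3.13 in C57BL/6J, with a pooled SD within groups of 0.431 on the log2 scale. Sample identifiers in the labels fall into 3 runs of consecutive numbers, whose meaning the labels do not give. Within runs 1, 2 and 3 the ratio was 3.25, 3.58 and 3.06 in CAST/EiJ and 3.46, 2.51 and 3.18 in C57BL/6J, and it was 2.56 in run 1 of NZO/HlLtJ, the only run that held both sexes of that strain on one diet.

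**Figure D1:**
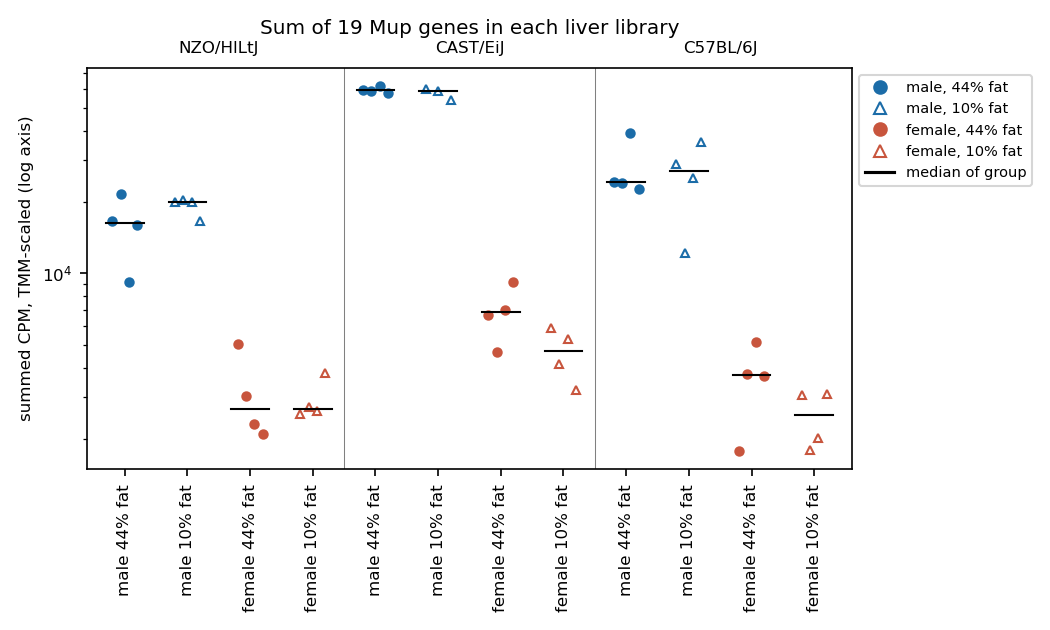
Summed level of 19 Mup genes in each of 47 liver libraries, in CPM on a log axis, by strain, sex and diet. Points are libraries, filled for 44% fat and open for 10% fat, and bars are group medians; the lowest CAST/EiJ male sits at 53728 CPM and the highest female, also CAST/EiJ, at 9193 CPM.

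With p-values of edgeR's quasi-likelihood test adjusted over all genes by Benjamini and Hochberg, 5 of 6 members were higher in NZO/HlLtJ males, where 7.94% of all genes tested were called higher. In CAST/EiJ males 5 of 6 were higher, against 16.1% of all genes, and in C57BL/6J males 6 of 6 were higher, against 8.1%. No member was called lower, against 9.31% of all genes in NZO/HlLtJ, 14.2% in CAST/EiJ and 8.7% in C57BL/6J. The median log2 fold change over the 6 members was 4.66 in NZO/HlLtJ, 4.03 in CAST/EiJ and 3.69 in C57BL/6J, beside -0.02, -0.01 and -0.01 over all genes. The first 2 of these medians include fitted values of members with almost no counts in one sex or both. Every adjusted p of a single gene below comes from the same test unless another tool is named.

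Mup20, which encodes darcin, was abundant in C57BL/6J males, lower in NZO/HlLtJ males and low in the females of both strains. In NZO/HlLtJ its levels were 187, 302, 158 and 219 CPM on 44% fat and 395, 305, 366 and 204 CPM on 10% fat in males, against 3.82, 6.45, 9.25 and 6.43 CPM on 44% fat and 3.67, 5.14, 9.27 and 4.91 CPM on 10% fat in females. In C57BL/6J they were 7821, 6954, 10971 and 6201 CPM on 44% fat and 9535, 7583, 9989 and 10075 CPM on 10% fat in males, against 862, 37, 76.6 and 61.7 CPM on 44% fat and 49.5, 49.1, 83.8 and 52.8 CPM on 10% fat in females. The sexes did not overlap in either strain, and 1 C57BL/6J female, the library with acinar transcripts described above, stood far above the others of its sex. The log2 fold change of males over females was 5.43 ± 0.446 in NZO/HlLtJ (SE; adjusted p = 1.03e-11) and 6.13 ± 0.457 in C57BL/6J (adjusted p = 5.59e-13). Without the 5 acinar libraries it was 7.11 in C57BL/6J.

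In CAST/EiJ, Mup20 held 4 counts over the 7 male libraries, 4 of which were at 0, and 18 counts over the 8 female libraries. No library of that strain was above 0.176 CPM, and no fold between its sexes is given (adjusted p = 0.624).

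Mup21, a peripheral member most like Mup3 in sequence, was low in every female. In NZO/HlLtJ its levels were 118, 206, 58.2 and 171 CPM on 44% fat and 175, 202, 196 and 96.1 CPM on 10% fat in males, against 1.84, 1.47, 1.86 and 1.5 CPM on 44% fat and 0.831, 0.993, 1.12 and 1.47 CPM on 10% fat in females. In CAST/EiJ they were 61.4, 29.4, 49.9 and 32.4 CPM on 44% fat and 12.8, 24.4 and 17.2 CPM on 10% fat in males, against 0.227, 0.379, 0.205 and 0.398 CPM on 44% fat and 0.225, 0.223, 0.644 and 0.182 CPM on 10% fat in females. In C57BL/6J they were 181, 177, 284 and 112 CPM on 44% fat and 212, 49.1, 224 and 366 CPM on 10% fat in males, against 2.91, 4.25, 7.31 and 3.08 CPM on 44% fat and 2.75, 1.6, 2.38 and 2.77 CPM on 10% fat in females. No male overlapped with any female, of any strain. Males over females gave a log2 fold change of 6.80 ± 0.359 in NZO/HlLtJ (adjusted p = 5.57e-17), 6.49 ± 0.407 in CAST/EiJ (adjusted p = 3.23e-15) and 5.95 ± 0.338 in C57BL/6J (adjusted p = 4.04e-16). These were the highest log2 fold changes among the 6 members in NZO/HlLtJ and CAST/EiJ.

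Mup3 was at 405 CPM or more in every library. Its lowest, median and highest levels were 3243, 4499 and 5271 CPM in NZO/HlLtJ males, against 795, 1009 and 1580.5 CPM in NZO/HlLtJ females. They were 4892, 5976 and 6384 CPM in CAST/EiJ males, against 405, 1012 and 1278 CPM in CAST/EiJ females, and 3254, 6568 and 8397 CPM in C57BL/6J males, against 794, 2119 and 3355 CPM in C57BL/6J females. Only in C57BL/6J did the sexes touch, where the lowest male stood just below the highest female. The log2 fold change was 2.04 ± 0.203 in NZO/HlLtJ (adjusted p = 6.01e-10), 2.61 ± 0.212 in CAST/EiJ (adjusted p = 1.21e-12) and 1.70 ± 0.201 in C57BL/6J (adjusted p = 2.74e-08).

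Mup17, a central copy, reached by far the highest level of any member, in CAST/EiJ males. There it measured 27729, 28032, 28104 and 28077 CPM on 44% fat and 28927, 27233 and 25285 CPM on 10% fat, against 1455, 333, 892 and 1934 CPM on 44% fat and 429, 209, 630.0 and 92.8 CPM on 10% fat in CAST/EiJ females. In NZO/HlLtJ it measured 60, 294, 20 and 127 CPM on 44% fat and 198, 175, 273 and 223 CPM on 10% fat in males, against 12.9, 7.02, 2.54 and 3.21 CPM on 44% fat and 4.54, 5.09, 6.5 and 10.1 CPM on 10% fat in females. In C57BL/6J it measured 543, 757, 1130.1 and 704 CPM on 44% fat and 492, 22.5, 154 and 765 CPM on 10% fat in males, against 1.52, 96.3, 76.1 and 115 CPM on 44% fat and 33.5, 9.21, 3.21 and 34 CPM on 10% fat in females. The sexes did not overlap in CAST/EiJ or NZO/HlLtJ and overlapped in C57BL/6J, where 1 male on 10% fat had 22.5 CPM. On the log2 scale males exceeded females by 4.67 ± 0.681 in NZO/HlLtJ (adjusted p = 3.56e-06), 5.46 ± 0.706 in CAST/EiJ (adjusted p = 1.49e-07) and 3.80 ± 0.648 in C57BL/6J (adjusted p = 4.23e-05). CAST/EiJ males differed little from one another in Mup17, with an SD within groups of 0.0619 on the log2 scale, whereas that SD was 1.64 in C57BL/6J males and 2.39 in C57BL/6J females.

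Mup15, the central copy with the fewest sequences of its own, stood well below Mup17 in CAST/EiJ and close to it in C57BL/6J. Its lowest, median and highest levels were 2298, 2469.9 and 3082 CPM in CAST/EiJ males, against 2.21, 27.4 and 133 CPM in CAST/EiJ females. They were 20.1, 492 and 1033 CPM in C57BL/6J males, against 1.11, 50.4 and 113 CPM in C57BL/6J females, with overlap between the sexes in C57BL/6J but not in CAST/EiJ. The log2 fold change was 6.21 ± 0.740 in CAST/EiJ (adjusted p = 2.78e-08) and 3.58 ± 0.648 in C57BL/6J (adjusted p = 0.000104). In NZO/HlLtJ, Mup15 was near absent, with 285 counts over 8 male libraries and 13 counts over 8 female libraries, 3 of which were at 0. Its fitted log2 fold change there was 4.65 ± 1.37 (adjusted p = 0.0147), a value that depends on the prior count. With limma on the deposited variance-stabilized values it was 0.94 (adjusted p = 0.323), and the call was lost.

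Mup18, the remaining central copy, had the smallest difference between the sexes. Its lowest, median and highest levels were 317, 441 and 731 CPM in CAST/EiJ males, against 73.3, 125 and 186 CPM in CAST/EiJ females. They were 625, 941 and 1039.7 CPM in C57BL/6J males, against 75.4, 410.3 and 729 CPM in C57BL/6J females. In NZO/HlLtJ they were 0.506, 1.4 and 2.79 CPM in males, against 0.422, 1.38 and 2.81 CPM in females. The sexes were apart in CAST/EiJ, overlapped in C57BL/6J and covered the same range in NZO/HlLtJ. Male over female log2 fold changes were 1.89 ± 0.348 in CAST/EiJ (adjusted p = 5.72e-05), 1.25 ± 0.333 in C57BL/6J (adjusted p = 0.0075) and 0.01 ± 0.415 in NZO/HlLtJ (adjusted p = 0.996).

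**Figure D2:**
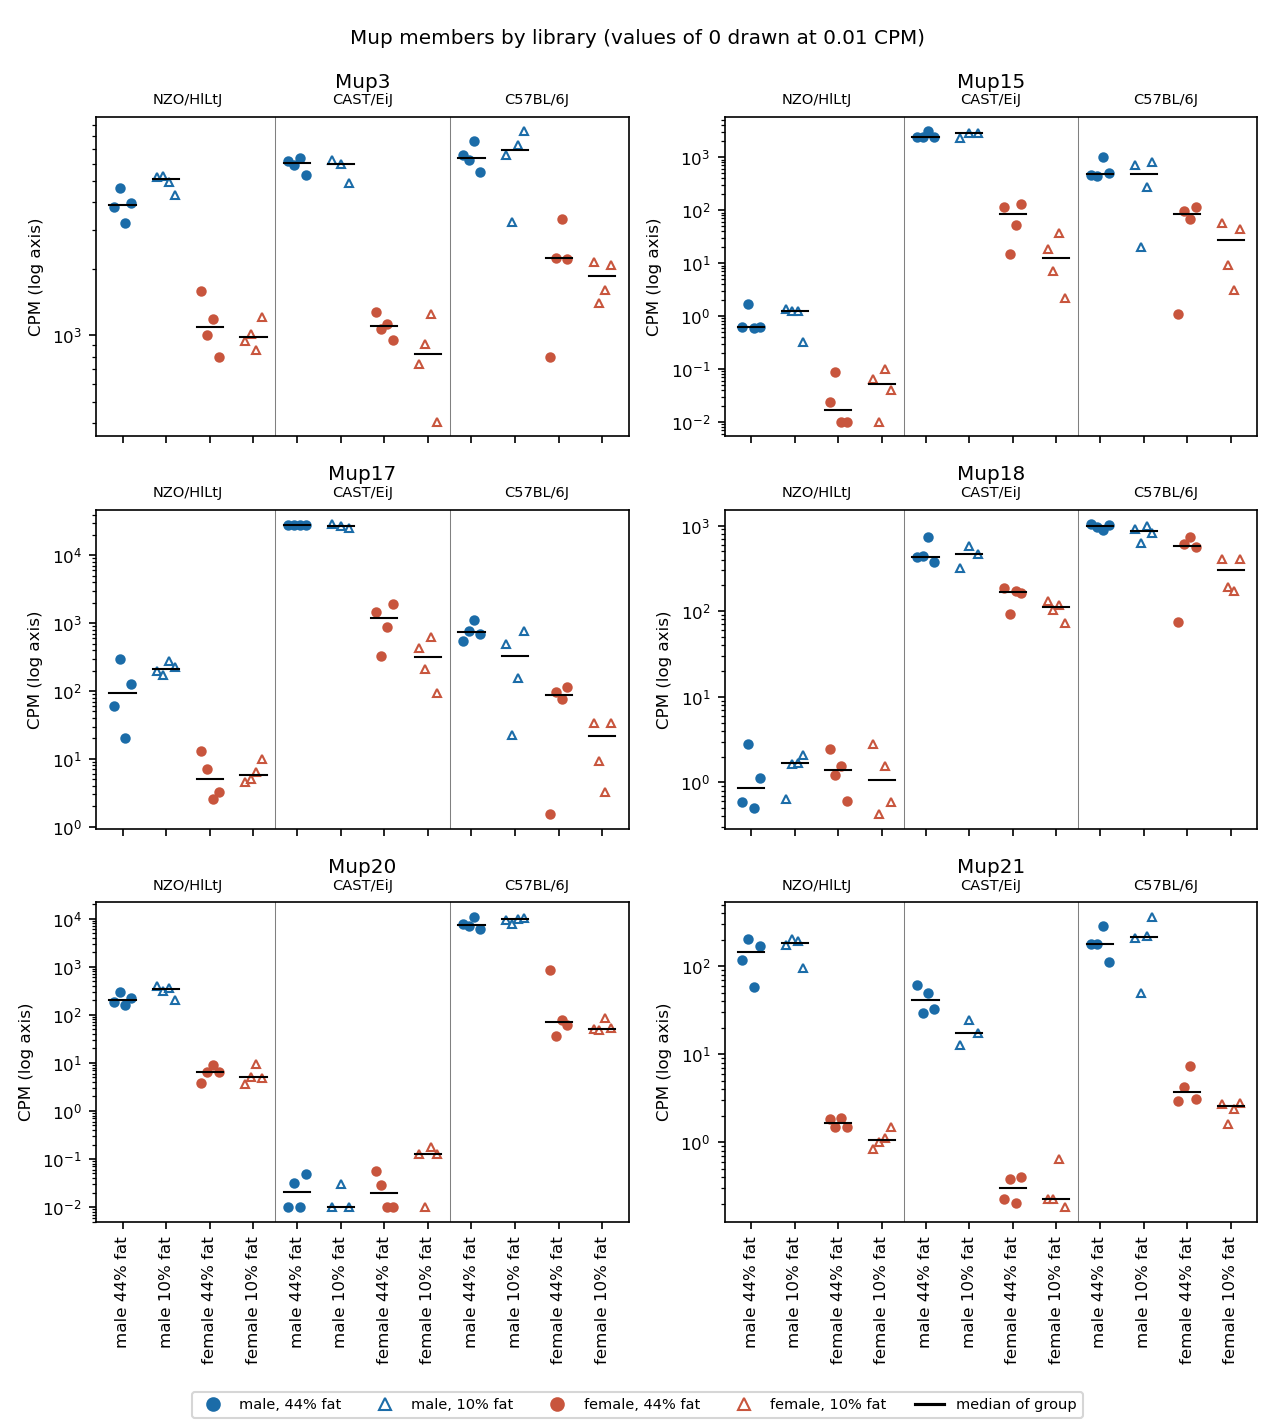
Level of each of the 6 Mup members in every library, in CPM on log axes that differ between panels, by strain, sex and diet. Points are libraries, filled for 44% fat and open for 10% fat, values of 0 are drawn at 0.01 CPM and bars are group medians; Mup20 is near 0 in all CAST/EiJ libraries and Mup18 is near 1 CPM in all NZO/HlLtJ libraries.

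Compared per length (CPM per kb of the longest coding transcript), Mup3 led the members in NZO/HlLtJ males with 4506 ± 737 (SD, n = 8), followed by Mup20 with 288 ± 94.2. Mup17 led in CAST/EiJ males with 29802 ± 1240.4 (n = 7), followed by Mup3 with 5938 ± 553 and Mup15 with 2840 ± 320. In C57BL/6J males Mup20 led with 9312 ± 1853 and Mup3 followed with 6527 ± 1580.2 (n = 8 each). Among females of both diets Mup3 had the highest mean in all 3 strains, with 1090 ± 255 in NZO/HlLtJ, 982 ± 294 in CAST/EiJ, where Mup17 was at 806 ± 698, and 2013 ± 763 in C57BL/6J.

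Over all 19 numbered Mup genes, 15 were called higher in NZO/HlLtJ males, 17 in CAST/EiJ males and 19 in C57BL/6J males, and 0 lower. The genes not called in NZO/HlLtJ were Mup2 (log2 fold change -0.71, adjusted p = 0.151), Mup9 (0.54, adjusted p = 0.403), Mup18 and Mup19 (-0.99, adjusted p = 0.0865). In CAST/EiJ they were Mup2 (0.85, adjusted p = 0.0621) and Mup20. Mup7, which is no member, had the largest ratio in C57BL/6J, with a mean of 5928 CPM in males and 1.87 CPM in females (log2 fold change 11.65, adjusted p = 1.94e-16). The pseudogenes of the family stayed between 0.27 and 10.8 CPM in sum.

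Whether the sex difference itself differed between strains was tested as an interaction. Between CAST/EiJ and C57BL/6J 2 of 6 members were called, against 10.5% of all genes: the male to female log2 difference was larger in CAST/EiJ by 0.90 for Mup3 (adjusted p = 0.0325) and by 2.63 for Mup15 (adjusted p = 0.0425). The Mup15 call was lost in 17 of 31 refits that each left out 1 library (2.34 to 3.03, adjusted p 0.0109 to 0.0873), among them 8 C57BL/6J and 9 CAST/EiJ libraries. The Mup3 call was lost in 8 of 31 (0.76 to 1.04, adjusted p 0.00285 to 0.0691): without CAST/EiJ female replicate 4 on 44% fat, CAST/EiJ male replicates 1 or 2 on 10% fat, C57BL/6J female replicate 3 on 44% fat, C57BL/6J female replicates 1 or 4 on 10% fat, C57BL/6J male replicate 4 on 44% fat or C57BL/6J male replicate 2 on 10% fat. Mup20, near absent in CAST/EiJ, was not called in edgeR (adjusted p = 0.0851) but was called by DESeq2 and limma (adjusted p of 1.2e-13 and 1.44e-13). Between NZO/HlLtJ and CAST/EiJ 1 of 6 was called, against 13.6% of all genes, with Mup18 at -1.88 (adjusted p = 0.0155, and 0.0555 without NZO/HlLtJ female replicate 1 on 10% fat). Mup18 was near absent in NZO/HlLtJ, with medians of 1.4 CPM in males and 1.38 CPM in females. Between NZO/HlLtJ and C57BL/6J 0 of 6 were called by edgeR or DESeq2, against 0.571% of all genes, with 1 of 6 at an unadjusted p under 0.05. Without C57BL/6J female replicate 1 on 44% fat, Mup20 was called there at -1.76 (adjusted p = 0.000395). A joint test over the 3 strains called Mup18 (adjusted p = 0.0406) and none of the other 5, against 13.6% of all genes. Over the 19 numbered Mup genes that test left only 8 uncalled, with the smallest adjusted p for Mup7 (5e-12). By pair, the male to female log2 difference was called larger for 2 and smaller for 8 of 19 in CAST/EiJ than in C57BL/6J. In NZO/HlLtJ it was smaller for 7 of 19 than in C57BL/6J and for 3 of 19 than in CAST/EiJ, and larger for 0.

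In bulk liver RNA, fewer cells of a type and less RNA per cell cannot be told apart. Kupffer cell and macrophage markers were lower in males for 8 of 8 genes in NZO/HlLtJ, 8 of 8 in CAST/EiJ and 4 of 8 in C57BL/6J, against 9.31%, 14.2% and 8.7% of all genes. Their summed level was 168 to 260.3 CPM in NZO/HlLtJ males and 252 to 422 CPM in NZO/HlLtJ females, 99.1 to 165 CPM in CAST/EiJ males and 164 to 313 CPM in CAST/EiJ females, and 212 to 377 CPM in C57BL/6J males and 311 to 436 CPM in C57BL/6J females. Their part in the Mup differences was not tested.

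The make-up of the Mup counts also differed between the sexes, measured as each member's percent of the counts over the 19 genes. An exact permutation test of sex labels within each diet was run for 6 members in 3 strains, two-sided, with p-values adjusted over the 18 tests. A share is tied to the whole sum, so it can differ between the sexes where the member's own level does not. It also depends on how shared reads were split among the copies, which is not given in the sources used here. Mup3 took a smaller share in males, at 25.9% against 36.5% in NZO/HlLtJ females (adjusted p = 0.00184), 9.92% against 17.4% in CAST/EiJ females (adjusted p = 0.00588) and 24.7% against 65.5% in C57BL/6J females (adjusted p = 0.000816). Mup18 also took a smaller share in males, at 0.00773% against 0.0478% in NZO/HlLtJ females, 0.812% against 2.28% in CAST/EiJ females and 3.68% against 11.9% in C57BL/6J females (adjusted p of 0.000816, 0.000816 and 0.00184). In NZO/HlLtJ the median level of Mup18 was 1.4 CPM in males and 1.38 CPM in females, so its share differed there only through the sum. Mup21 took a larger share in males of every strain, at 0.848% against 0.0484% in NZO/HlLtJ females, 0.0549% against 0.00583% in CAST/EiJ females and 0.717% against 0.111% in C57BL/6J females (adjusted p = 0.000816 each).

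Mup17 alone was assigned 47% of the Mup counts of CAST/EiJ males, against 11.2% in CAST/EiJ females (adjusted p = 0.000816). Its share was 0.910% in NZO/HlLtJ males and 0.204% in NZO/HlLtJ females (adjusted p = 0.00184), and 2.00% in C57BL/6J males and 1.26% in C57BL/6J females (adjusted p = 0.108). Mup20 made up 34.9% of the Mup counts of C57BL/6J males, against 7.85% in C57BL/6J females (adjusted p = 0.00262), and 1 of those females had 48.5%. In NZO/HlLtJ the share of Mup20 was 1.52% in males and 0.226% in females (adjusted p = 0.000816). The share of Mup15 was larger in males of NZO/HlLtJ and CAST/EiJ, at 4.48% in CAST/EiJ males and 0.686% in CAST/EiJ females (adjusted p = 0.000816), and did not pass in C57BL/6J (1.84% in males and 1.37% in females, adjusted p = 0.34). Of the 18 tests, 15 passed, among them those of Mup15 and Mup18 in NZO/HlLtJ, where both genes were near absent. The smallest p these permutations can give is 0.000408. Among genes other than the members, Mup7 took 35.1% in NZO/HlLtJ males and 15.8% in NZO/HlLtJ females, 18.6% in CAST/EiJ males and 31.9% in CAST/EiJ females, and 20.2% in C57BL/6J males and 0.0567% in C57BL/6J females. Mup1 took 22.8% in NZO/HlLtJ males and 5.91% in NZO/HlLtJ females. Mup19 took 8.75% in CAST/EiJ males and 16.2% in CAST/EiJ females, and 1.23% in NZO/HlLtJ males and 12.7% in NZO/HlLtJ females. No 100-base window of the Mup19 transcript was its own, so its share depends on the split of shared reads.

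**Figure D3:**
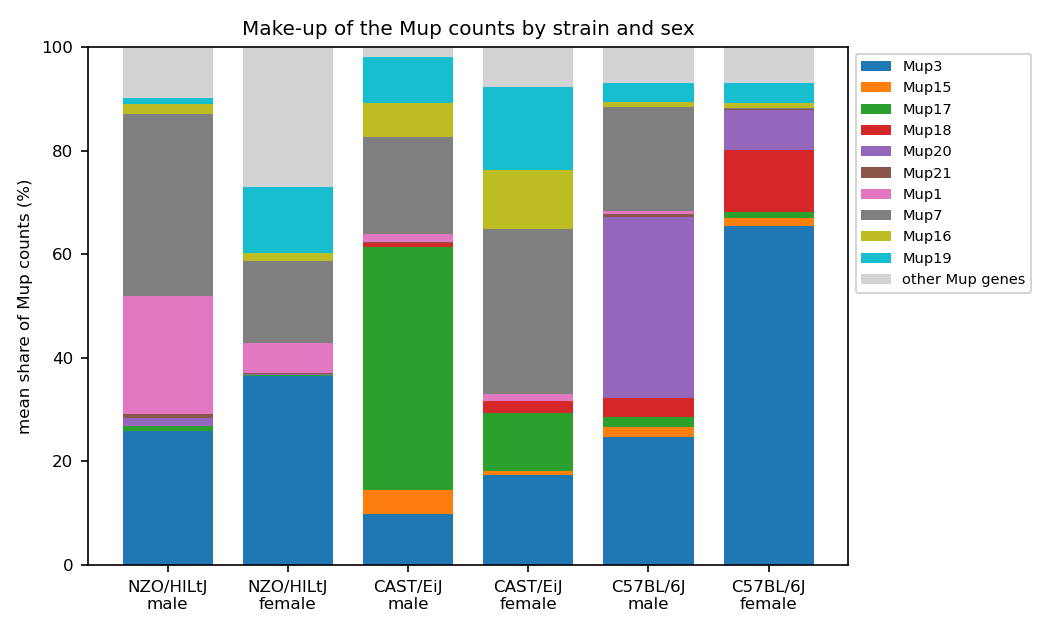
Mean share of the Mup counts held by each of 10 Mup genes and by the other 9 together, in percent, for each strain and sex. Bars are means over 8 libraries, or 7 for CAST/EiJ males; Mup17 fills 47% of the bar of CAST/EiJ males, Mup20 34.9% of that of C57BL/6J males and Mup3 65.5% of that of C57BL/6J females.

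Diet changed none of the 6 members in any strain at an adjusted p under 0.05 in edgeR. In NZO/HlLtJ 0 of 6 were called, against 5.64% of all genes tested, and 0 of 6 had an unadjusted p under 0.05. In CAST/EiJ 0 of 6 were called, against 0.895% of all genes, again with 0 of 6 under 0.05 unadjusted. In C57BL/6J 0 of 6 were called, against 0.991% of all genes, with 2 of 6 under 0.05 unadjusted and 1 of 6 called by DESeq2, Mup17 (adjusted p = 0.0454). The smallest adjusted p from edgeR was 0.775 in NZO/HlLtJ, 0.489 in CAST/EiJ and 0.245 in C57BL/6J. Of the 19 Mup genes, 0 were called in any strain by edgeR, with 0, 0 and 9 under 0.05 unadjusted in NZO/HlLtJ, CAST/EiJ and C57BL/6J.

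The summed level on 44% fat was 0.854 times that on 10% fat in NZO/HlLtJ, 1.07 times in CAST/EiJ and 1.11 times in C57BL/6J. The log2 ratios were -0.23, 0.10 and 0.15, and males weigh most in these sums. The pooled SD within groups of 0.431 describes single libraries and does not measure the error of such a ratio. In females alone the sum averaged 3126 ± 1342 CPM on 44% fat and 2925 ± 578 CPM on 10% fat in NZO/HlLtJ, a log2 ratio of 0.10 (SD, n = 4 each). It averaged 6904 ± 1851 CPM on 44% fat and 4628 ± 1187 CPM on 10% fat in CAST/EiJ females, a log2 ratio of 0.58. In C57BL/6J females it averaged 3593 ± 1379.6 CPM on 44% fat and 2494 ± 681 CPM on 10% fat, a log2 ratio of 0.53. The diets overlapped in the females of all 3 strains, and these ratios were not tested. In males alone the log2 ratio was -0.28 in NZO/HlLtJ, 0.05 in CAST/EiJ and 0.11 in C57BL/6J. Within runs 1, 2 and 3 of sample identifiers the log2 ratio was 0.01, 0.07 and 0.21 in CAST/EiJ and -0.29, 1.02 and 0.04 in C57BL/6J, and it was 0.01 in run 1 of NZO/HlLtJ.

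The diet values of single members showed where the spread lay. In C57BL/6J, Mup17 averaged 428 CPM on 44% fat and 189 CPM on 10% fat, with a log2 fold change of 1.49 ± 0.593 (adjusted p = 0.265). Acinar libraries held its lowest value among males on 10% fat (22.5 CPM) and also among females on 44% fat (1.52 CPM). Mup20 in C57BL/6J had a fitted log2 fold change of 0.96 ± 0.369 (adjusted p = 0.245), although it averaged 4123 CPM on 44% fat and 4677 CPM on 10% fat. In C57BL/6J females alone it was 2.14 ± 0.54 (adjusted p = 0.0938, with 0.102% of all genes called). The value over both sexes turned to -0.12 (adjusted p = 0.884) without C57BL/6J female replicate 1 on 44% fat, the library with 862 CPM of Mup20. In CAST/EiJ males, Mup21 stood at 61.4, 29.4, 49.9 and 32.4 CPM on 44% fat, against 12.8, 24.4 and 17.2 CPM on 10% fat. Those groups did not overlap, and the log2 fold change was 1.26 ± 0.429 (adjusted p = 0.379), in a comparison where 0.012% of all genes were called.

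In CAST/EiJ females, where 0.198% of all genes were called by diet, the central copies had higher mean levels on 44% fat with overlap between the diets. Mup15 stood at 117, 14.6, 52.8 and 133 CPM on 44% fat, against 18.1, 7.23, 36.6 and 2.21 CPM on 10% fat (log2 fold change 2.30 ± 0.877, adjusted p = 0.37). Mup17 averaged 1153 ± 693 CPM on 44% fat and 340.2 ± 238 CPM on 10% fat (SD, n = 4 each; log2 fold change 1.76 ± 0.842, adjusted p = 0.538). In NZO/HlLtJ males, where 2.68% of all genes were called by diet, all 6 members had log2 fold changes below 0, from -0.79 ± 0.824 for Mup17 to -0.20 ± 1.14 for Mup15, and none passed (adjusted p of 0.62 to 0.966). Mup3 in those males stood at 3825, 4675, 3243 and 3961 CPM on 44% fat, against 5236, 5271, 4934 and 4323 CPM on 10% fat. A joint test called 0 of 6 members for a diet effect that differs among strains, with a smallest adjusted p of 0.54 and with 0.048% of all genes called. No member had a diet effect that differed between the sexes, with a smallest adjusted p of 0.766, against 0.018%, 0% and 0.0841% of genes called in NZO/HlLtJ, CAST/EiJ and C57BL/6J.

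**Figure D4:**
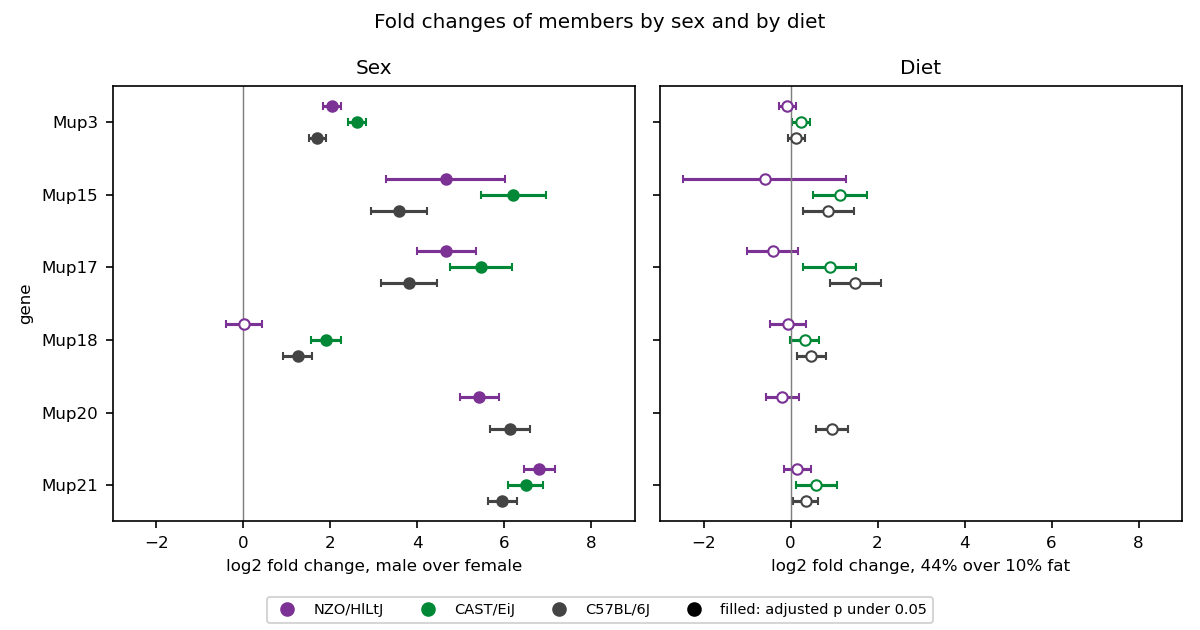
Log2 fold change of each member for males over females (left) and for 44% over 10% fat (right) in each strain, with bars of 1 SE. Filled points passed an adjusted p of 0.05, and Mup20 in CAST/EiJ is left out for its near absence of counts; 16 of the 17 sex values shown lie above 1, against 2 of the 17 diet values, and all diet values are open.

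The strains differed in which members held counts. Mup20 had almost no counts in CAST/EiJ, Mup15 and Mup18 had almost none in NZO/HlLtJ, and none of the 6 members was near absent in C57BL/6J. The gene symbols follow the C57BL/6J reference. The part of the strains' own Mup sequences and of the assignment of shared reads in these counts was not tested. Mup17 was much higher in CAST/EiJ than in either other strain. Mup3 differed least between strains.

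In NZO/HlLtJ against C57BL/6J, averaged over sexes and diets, 6 of 6 members were lower, where 23.6% of all genes tested were called lower, and 0 of 6 higher, where 25.5% were called higher. The log2 fold change was -4.69 ± 0.303 for Mup20 (adjusted p = 1.12e-15), -2.12 ± 0.431 for Mup17 (adjusted p = 9.48e-05), -0.82 ± 0.212 for Mup21 (adjusted p = 0.0015) and -0.71 ± 0.139 for Mup3 (adjusted p = 4.46e-05). For the near-absent members, ratios of pooled counts are given with 95% intervals that cover counting error only. Mup18 held 414 counts in NZO/HlLtJ males and 303770 in C57BL/6J males, and C57BL/6J males stood 638-fold higher in CPM (interval 579 to 704). In females the same ratio was 282-fold (interval 257 to 309). Mup15 was 546-fold higher in C57BL/6J males (interval 486 to 615) and 1303-fold higher in C57BL/6J females (interval 762 to 2448) than in NZO/HlLtJ. The sum over the 19 genes was 0.695 times that of C57BL/6J, a log2 ratio of -0.52, and 7 of 19 genes were higher and 8 lower. Mup1 was among the higher genes, with a mean of 2056 CPM in NZO/HlLtJ and 72.8 CPM in C57BL/6J.

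In CAST/EiJ against C57BL/6J, 2 of 6 members were higher, where 32.6% of all genes were called higher, and 4 of 6 lower, where 35.3% were called lower. Mup17 was higher by 4.87 ± 0.484 on the log2 scale (adjusted p = 4.05e-11) and Mup15 by 0.99 ± 0.426 (adjusted p = 0.0385). The Mup15 call was lost in 11 of 31 refits that each left out 1 library, 5 of CAST/EiJ and 6 of C57BL/6J (0.79 to 1.13, adjusted p 0.0216 to 0.0982). Mup21 was lower at -3.10 ± 0.256 (adjusted p = 2.87e-13), Mup18 at -1.25 ± 0.242 (adjusted p = 2.3e-05) and Mup3 at -0.59 ± 0.142 (adjusted p = 0.000359). Mup20 held 4 counts in CAST/EiJ males and 2890245 in C57BL/6J males, so that C57BL/6J males stood 565130-fold higher (interval 220719 to 2074130). In females the ratio was 2508-fold (interval 1587 to 4232). Of the 53504 counts of C57BL/6J females, 35833 came from 1 library, replicate 1 on 44% fat (862 CPM). The ratio thus rests largely on that library, and the interval does not cover its distance from the other females. The sum over the 19 genes was 2.17 times that of C57BL/6J, a log2 ratio of 1.12, with 11 genes higher and 5 lower.

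In NZO/HlLtJ against CAST/EiJ, 2 of 6 members were higher, where 35.3% of all genes were called higher, and 3 of 6 lower, where 32.8% were called lower. Mup21 was higher in NZO/HlLtJ by 2.28 ± 0.266 on the log2 scale (adjusted p = 1.65e-09). Mup20 was 17825-fold higher in NZO/HlLtJ males (interval 6961 to 65421) and 96.9-fold higher in NZO/HlLtJ females (interval 61.2 to 164) than in CAST/EiJ. Mup17 was lower at -6.99 ± 0.535 (adjusted p = 4.65e-14). Mup18 was 340-fold higher in CAST/EiJ males (interval 308 to 375) and 93.6-fold higher in CAST/EiJ females (interval 85.6 to 103) than in NZO/HlLtJ. For Mup15 the ratio was 2694-fold in males (interval 2399 to 3037) and 1297-fold in females (interval 758 to 2437). Mup3 did not pass, at -0.12 ± 0.141 (adjusted p = 0.461). The sum was 0.32 times that of CAST/EiJ, a log2 ratio of -1.64, with 6 genes higher and 11 lower.

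The strain comparisons share libraries: each strain enters 2 of the 3. Within runs 1, 2 and 3 of sample identifiers the log2 ratio of the sum was -0.34, -0.72 and -0.74 for NZO/HlLtJ over C57BL/6J, 1.19, 1.60 and 0.88 for CAST/EiJ over C57BL/6J, and -1.53, -2.03 and -1.61 for NZO/HlLtJ over CAST/EiJ. Cell type markers differed between strains too. In these 3 comparisons 23.6% of all genes were called lower in NZO/HlLtJ than in C57BL/6J, 35.3% lower in CAST/EiJ than in C57BL/6J, and 35.3% higher in NZO/HlLtJ than in CAST/EiJ. Kupffer cell and macrophage markers were lower in NZO/HlLtJ than in C57BL/6J for 4 of 8 genes, lower in CAST/EiJ than in C57BL/6J for 8 of 8, and higher in NZO/HlLtJ than in CAST/EiJ for 6 of 8. Their summed level was 168 to 422 CPM in NZO/HlLtJ, 99.1 to 313 CPM in CAST/EiJ and 212 to 436 CPM in C57BL/6J. Lymphocyte markers, at most 4.54 CPM in sum in any library, were lower in CAST/EiJ than in C57BL/6J for 6 of 6 genes and higher in NZO/HlLtJ than in CAST/EiJ for 5 of 6. Acinar markers were lower in NZO/HlLtJ than in CAST/EiJ for 5 of 6 genes, where 32.8% of all genes were called lower. Their sums were 2.37 to 12.9 CPM in NZO/HlLtJ, 0.657 to 497 CPM in CAST/EiJ and 2.41 to 653 CPM in C57BL/6J. The part of these markers in the strain differences of Mup genes was not tested. Differences between the strains' own Mup sequences and the reference were not analysed here.

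**Figure D5:**
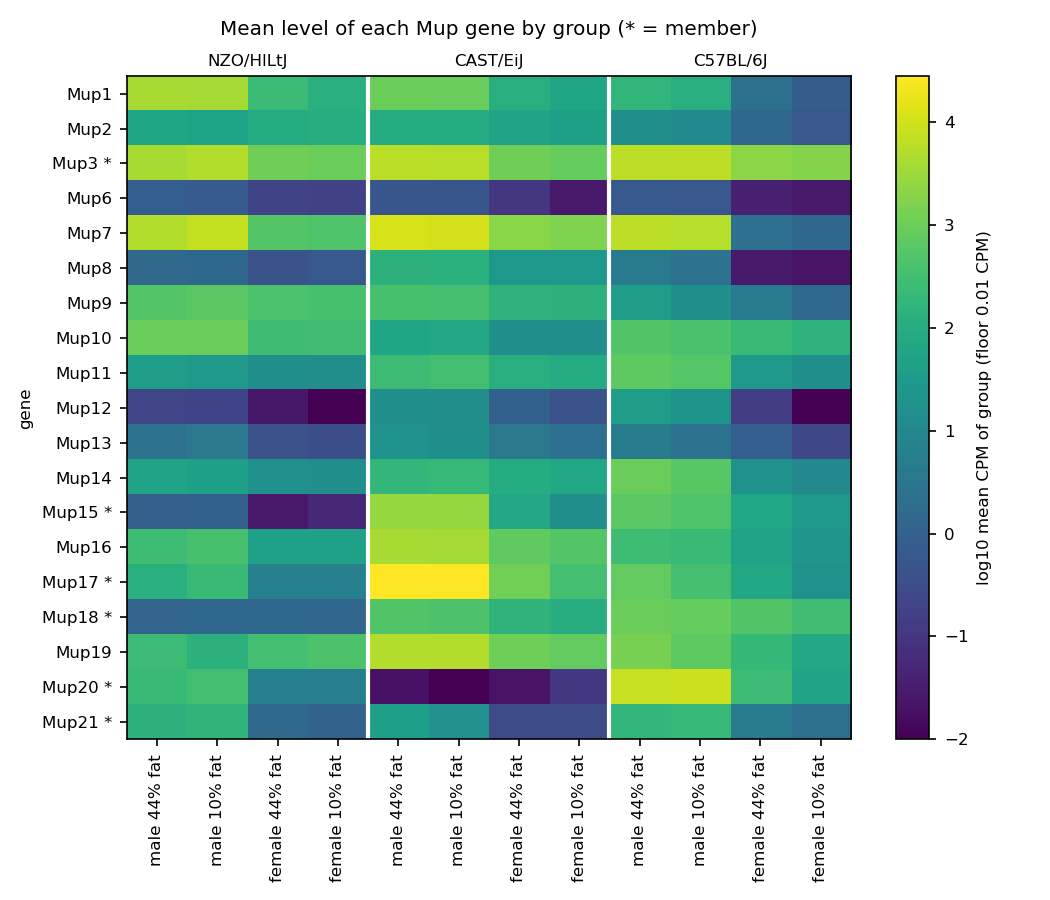
Mean level of each of the 19 Mup genes in the 12 groups, as log10 of the group mean in CPM with a floor of 0.01 CPM; stars mark the 6 members. The brightest cells are Mup17 in CAST/EiJ males, with group means of 27986 CPM on 44% fat and 27148 CPM on 10% fat, and the row of Mup20 is dark across CAST/EiJ.

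Deviations of libraries from their group means, on the log2 scale, showed which members moved together within groups. Over 47 libraries Pearson's r was 0.91 between Mup15 and Mup17, 0.78 between Mup3 and Mup17 and 0.67 between Mup3 and Mup21. Without the 5 acinar libraries, with group means taken again, these values were 0.77, 0.59 and 0.63 over 42 libraries. Mup20 had r of -0.39 with Mup3, -0.37 with Mup15, -0.42 with Mup17 and -0.45 with Mup18 over 47 libraries, but 0.00, 0.16, 0.04 and -0.05 without the acinar libraries, so its opposite course rested on those libraries. With the family sum r was 0.88 for Mup17, 0.80 for Mup3 and 0.69 for Mup21, and 0.81, 0.70 and 0.66 without them. The points share library, depth and, among the central copies, reads, so these values are a description.

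In C57BL/6J male replicate 2 on 10% fat, one of the acinar libraries, the sum was lowest of its sex and strain (12224 CPM) while Mup20 took 62.0% of it (7583 CPM). Mup15, Mup17 and Mup21 were at 20.1, 22.5 and 49.1 CPM there, each the lowest among C57BL/6J males. Its summed male-biased genes, 2714 CPM, were also the lowest among C57BL/6J males.

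Among 10630 genes outside the family, those closest to the family sum in these deviations were Cyp7b1 (r = 0.819), Ugt2b1 (0.799), Sult2a8 (0.778), Cyp2d9 (0.732) and Hsd3b5 (0.725), enzymes of steroid, bile acid or drug metabolism. Without the acinar libraries they had r of 0.775, 0.734, 0.665, 0.631 and 0.665. For Mup21 the closest genes were Cyp7b1 (0.713), Ttc39c (0.701), Tmem126a (0.689) and the complement genes C8b (0.669) and C4a (0.657), with 0.606, 0.512, 0.538, 0.617 and 0.385 without the acinar libraries. For Mup20 they were Alcam (0.725), Ptgfrn (0.665), Plekhm2 (0.643), Vars (0.641) and Afap1 (0.635), which had only 0.411, 0.249, 0.337, 0.300 and 0.364 without the acinar libraries. Over the 12 group means the closest to the sum were C8a (0.984), Slc35e3 (0.975), C6 (0.972), Gabarapl2 (0.964) and Il1rap (0.961). The closest to Mup20 were Rab34 (0.981), Fam134a (0.975), Rnaseh2a (0.974), Fech (0.969) and Vps11 (0.966), and to Mup21 Vcl (0.961), Scp2 (0.960), Zfyve9 (0.945), Ranbp9 (0.942) and Tbcb (0.935).

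Other genes of the hormone pathways around the Mup genes were counted from lists that were chosen with earlier results of these data known. The male-biased and female-biased lists are defined by their sex bias, so their counts by sex only describe these data and test nothing. Of 18 male-biased liver genes, 18 were higher in NZO/HlLtJ males, 16 in CAST/EiJ males and 18 in C57BL/6J males, against 7.94%, 16.1% and 8.1% of all genes. Over all strains Cyp4a12a, a fatty acid hydroxylase, had a male over female log2 fold change of 10.14, and Cyp2d9 one of 4.53. Of 20 female-biased genes, 19, 17 and 20 were lower in males of NZO/HlLtJ, CAST/EiJ and C57BL/6J, against 9.31%, 14.2% and 8.7% of all genes. These included the repressor of male genes Cux2 (-6.95 over all strains, adjusted p = 9.52e-22) and the sulfotransferase Sult2a1 (-12.93). Cyp4a12, Sult2a and Serpina1 genes have close copies, so their single values are uncertain in the same way as those of the central Mup genes.

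Of 14 genes of growth hormone and Stat5 signalling, 1 was higher and 4 lower in NZO/HlLtJ males, 2 and 5 in CAST/EiJ males, and 1 and 5 in C57BL/6J males. Among all genes, 7.94% were higher and 9.31% lower in NZO/HlLtJ males, 16.1% and 14.2% in CAST/EiJ males, and 8.1% and 8.7% in C57BL/6J males. Over all strains the growth hormone receptor Ghr was higher in males by 0.34 on the log2 scale (adjusted p = 6.63e-07), Bcl6, a repressor of female genes, by 1.41, and the feedback inhibitor Socs2 was lower at -1.40. Stat5b itself was at -0.10 (adjusted p = 0.0859). Of 16 hepatocyte transcription factors and hormone receptors, 2 were higher and 2 lower in NZO/HlLtJ males, 3 and 5 in CAST/EiJ males and 3 and 2 in C57BL/6J males. Zhx2, a zinc finger and homeobox factor known to regulate Mup genes in mouse liver, was higher in males by 0.24 (adjusted p = 1.65e-05). Between strains Zhx2 was at -0.19 for NZO/HlLtJ over C57BL/6J (adjusted p = 0.00191), 0.06 for CAST/EiJ over C57BL/6J (adjusted p = 0.338) and -0.25 for NZO/HlLtJ over CAST/EiJ (adjusted p = 6.31e-05). Of 9 other lipocalin genes, 1 was higher and 3 lower in NZO/HlLtJ males, 2 and 3 in CAST/EiJ males and 1 and 4 in C57BL/6J males.

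By diet in NZO/HlLtJ, where 5.64% of all genes and no Mup gene were called, 2 of the 14 growth hormone genes, 3 of the 18 male-biased genes, 3 of the 20 female-biased genes and 0 of the 16 transcription factors and receptors were called. On 44% fat Socs2 fell by 1.61 (adjusted p = 0.0103) and Igfals, the carrier subunit of circulating IGF1, fell by 0.43 (adjusted p = 0.0416). Of the male-biased genes 1 was higher (Nat8, 1.01) and 2 were lower (Serpina1e, -2.42, and Cspg5, -1.23), and of the female-biased genes 3 were higher (Cyp2b10, 1.98, Hao2, 1.72, and Cyp17a1, 1.04) and 0 lower. Of the other lipocalins Apom (-0.33) and Ambp (-0.31) were lower. In CAST/EiJ Cyp4a12b (1.67, adjusted p = 0.0136) was the 1 male-biased gene called, and in C57BL/6J 0 of 18 were called. Of all genes, 0.895% and 0.991% were called by diet in these 2 strains. In C57BL/6J the leptin receptor gene Lepr was lower on 44% fat at -1.45 (adjusted p = 0.00768).

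Markers of cell types were counted in the same way, and the shares of all genes called by sex given above apply to them too. Of 10 hepatocyte markers, 2 were higher and 1 lower in NZO/HlLtJ males, 1 and 4 in CAST/EiJ males and 2 and 2 in C57BL/6J males. By diet 4 of these hepatocyte markers were lower on 44% fat in NZO/HlLtJ (Fgb, Apoa1, Alb and Trf) and 1 in CAST/EiJ (Alb). By diet 5.64% and 0.895% of all genes were called in these strains, in either direction. Of 6 endothelial markers, 1 was lower in males of NZO/HlLtJ, 1 in CAST/EiJ and 0 in C57BL/6J, and of 6 stellate cell markers 0, 2 and 2 were lower. Of 6 lymphocyte markers, 2, 1 and 0 were lower in males, and of 3 adipocyte markers 1 was higher in C57BL/6J males. None of 6 acinar and 5 cholangiocyte markers was called by sex in any strain. Their part in the Mup values was not tested.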

How the data were processed

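Liver RNA of 47 libraries was sequenced as paired reads of 100 bases from polyA-selected libraries, per the labels' protocols. The authors deposited expected counts per gene (20.3% of values were not whole) and log2 variance-stabilized values of the same libraries. Gene coordinates are those of the gene annotation deposited beside the count table, and all 19 Mup genes have the same start and end in GENCODE mouse release 21. The build GRCm38 and DESeq2 are named per the submitters' processing notes, and the aligner, the counter, its use of strand and its treatment of reads that match several copies are among the steps not given in the sources used here. Such treatment could move counts among Mup copies.

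Expected counts were rounded and tested with edgeR 4.0.16 in R 4.3.3. The fit used filterByExpr over the 12 groups, TMM scaling, a quasi-likelihood model of 12 group means with 35 residual degrees of freedom, and Benjamini-Hochberg adjustment over 16650 genes at 0.05. Contrasts averaged groups with equal weight. The SE of a log2 fold change is approximate: its absolute value divided by the square root of the F statistic of its test. Levels of Mup genes are CPM scaled by TMM, and summed levels of marker lists are CPM without scaling. Log2 values for correlations used a prior count of 2. Depth was 21.6 to 47.8 M counts per library (M, 1e6), and intervals of pooled counts (95%, Poisson) cover counting error only. Libraries were compared only within their group. The closest 2 libraries of a group differed by a chi-square of 22.7 per gene, so no library was a copy of another of its group. This value cannot show whether 2 libraries came from different mice. The test was also run on simulated counts with known changes.

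Named genes were all Mup genes called or left uncalled against their family, the 5 genes with the highest Pearson's r to the sum, to Mup20 and to Mup21 (average of at least 1 log2 CPM, no Gm or Rik symbols), up to 4 genes of lowest p from each of 14 gene lists, and a few regulators such as Zhx2. The members and the lists were chosen with earlier results of these data known. Alternatives were DESeq2 1.42.0, limma 3.58.1 on the deposited log2 values, other scalings and filters, each strain alone, the run of sample identifiers as a term, and fits without single libraries or without the 5 acinar libraries. The correlations without the acinar libraries were added after seeing the data. Transcripts came from GENCODE and upstream sequences from RefSeq, and were aligned with Python biopython 1.88; 5 of the 6 members had an upstream sequence.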

Additional observations from a re-analysis of the deposited data

Results flagged for a closer look

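In 10 of 77 sets of 4 libraries, 1 library stood far from the other 3 by its gap over the range. The cutoff gives about 5 percent of sets for independent, normal values. These sets share libraries and reads, and CPM were not checked for normality, so no excess over that rate is shown. For Mup20, C57BL/6J female replicate 1 on 44% fat was high at 862 CPM (next 76.6 CPM) and C57BL/6J female replicate 3 on 10% fat at 83.8 CPM (next 52.8 CPM). The first of these also carried the most Cpa1 and stellate cell markers, whose part was not tested. For Mup15, the high libraries were NZO/HlLtJ male replicate 2 on 44% fat (1.66 CPM, next 0.63 CPM), CAST/EiJ male replicate 3 on 44% fat (3082 CPM, next 2470 CPM) and C57BL/6J male replicate 3 on 44% fat (1033 CPM, next 516 CPM). NZO/HlLtJ male replicate 4 on 10% fat was low in Mup15 at 0.326 CPM (next 1.22 CPM). For Mup21, CAST/EiJ female replicate 3 on 10% fat was high at 0.644 CPM (next 0.225 CPM). The family sum was high in NZO/HlLtJ female replicate 4 on 10% fat (3786 CPM, next 2730 CPM) and in C57BL/6J male replicate 3 on 44% fat (38985 CPM, next 24419 CPM), and low in NZO/HlLtJ male replicate 4 on 10% fat (16621 CPM, next 19992 CPM).

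Among the 6 members, an interaction test in edgeR called a sex difference that differed between strains in 3 cases. None of the 3 held in every refit without 1 library. The call was lost in 8 of 31 refits for Mup3, 17 of 31 for Mup15 and 1 of 31 for Mup18. The joint test in edgeR over the 3 strains did not call Mup3 (adjusted p = 0.0654) or Mup15 (adjusted p = 0.088). It was larger in CAST/EiJ than in C57BL/6J by 0.90 on the log2 scale for Mup3 and by 2.63 for Mup15, and for Mup18 NZO/HlLtJ minus CAST/EiJ gave -1.88.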

How the results depend on the processing

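The counts of members called by sex and by strain kept within 1.5 times of their value under every alternative run. Mup15 by sex in NZO/HlLtJ lost its call with limma (0.94, adjusted p = 0.323). By diet, DESeq2 called 1 member in C57BL/6J. For the family sum the log2 ratio by sex was 2.51 in run 2 of C57BL/6J and 4.27 with the 6 members alone in CAST/EiJ, and by diet -0.29 in run 1 and 1.02 in run 2 of C57BL/6J. By strain it was 1.60 in run 2 for CAST/EiJ over C57BL/6J, and with the 6 members alone -1.70 for NZO/HlLtJ over C57BL/6J and -2.65 for NZO/HlLtJ over CAST/EiJ. Members with a sex difference that differed between strains numbered 1 with no filter and 4 with limma for CAST/EiJ against C57BL/6J, 1 without the acinar libraries for NZO/HlLtJ against C57BL/6J, and 2 without the acinar libraries, 4 with limma and 2 with DESeq2 for NZO/HlLtJ against CAST/EiJ. The sign turned for Mup20 by diet in C57BL/6J without the acinar libraries (-0.034), and with limma for Mup21 by diet in NZO/HlLtJ (-0.043), for the Mup21 sex difference in CAST/EiJ against C57BL/6J (-1.23, adjusted p = 0.027) and for that of Mup15 in NZO/HlLtJ against C57BL/6J (-2.77). Leaving out 1 library at a time gave -0.39 to 0.35 for Mup18 by sex in NZO/HlLtJ, and by diet -0.015 to 0.27 for Mup3 and -0.12 to 1.14 for Mup20 in C57BL/6J, -1.18 to 0.29 for Mup20 in CAST/EiJ and -0.45 to 0.28 for Mup18 in NZO/HlLtJ. It gave 0 to 3 members with an interaction for CAST/EiJ against C57BL/6J, 0 to 1 for NZO/HlLtJ against C57BL/6J and 0 to 1 for NZO/HlLtJ against CAST/EiJ. The cause was not tested. With the run of sample identifiers as a term, no call changed. No paired analysis was possible because the labels carry no replicate numbers that could match libraries across groups.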
